A study of Homo sapiens with 28 samples.

Results

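This account covers 8 genes of transcription factors that pattern the early neural ectoderm: SOX1, OTX2, ZIC1, ZIC2, SIX3, LHX2, LHX5 and SOX21. The genes were chosen by name, and each was read as its hg19 gene span with 5 kb added on either side, called its window. Peaks of 16 ChIP-seq lists that overlapped a window by at least 1 bp were taken, which gave 228 of 317841 listed peaks. The cells were human embryonic stem cells carrying the Fucci reporters, fluorescent proteins whose levels follow the cell cycle, and they had been sorted by fluorescence into 4 fractions. Early G1 cells carry the label DN, late G1 cells KO2, cells in S phase AzL, and cells in G2/M AzH. Every fraction came from the same medium without serum or feeder cells, which held IGF-1 (Longr3) at 200 ng/ml, heregulin and activin at 10 ng/ml each, and FGF2 at 8 ng/ml. The labels name no further treatment. The parent line and the sort purity are not stated in the labels, and gene expression was not analysed here. The positions of pluripotency markers were not analysed here either, so the labelled cell type was not checked against them. Each mark (H3K4me3, H3K27me3, H3K27ac and H3K4me1) had 1 library per fraction, so no test between fractions was possible. Differences between fractions below are differences between single libraries, and their replicate error is unknown. Where 4 values stand together they follow the cycle, with early G1 first and G2/M last.

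Polycomb repressive complexes place H3K27me3 on the promoters and bodies of developmental regulators in embryonic stem cells, mostly at CpG-rich DNA, and keep these genes silent or low until a lineage is chosen. H3K4me3 marks promoters that are active or poised, and a promoter with both marks is called bivalent. Acetylation at H3K27 is found where promoters or enhancers are active, and H3K4me1 at enhancers whether active or not. The 8 genes have distinct places in neural development. SOX1 is a SoxB1 factor that marks neural progenitors, and SOX21 is a SoxB2 factor that counteracts SoxB1 proteins. OTX2 is a homeobox factor of the anterior neural plate that is also active in pluripotent epiblast. ZIC1 and ZIC2 are zinc finger factors of the neural plate and dorsal neural tube, SIX3 is a homeobox factor of the forebrain and eye, and LHX2 and LHX5 are LIM homeobox factors of the forebrain.

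In hg19 the genes lie at chr13:112721913-112726020 (SOX1), chr14:57267425-57277194 (OTX2), chr3:147127181-147134506 (ZIC1), chr13:100634026-100639019 (ZIC2), chr2:45169037-45173216 (SIX3), chr9:126773889-126795442 (LHX2), chr12:113900694-113909877 (LHX5) and chr13:95361879-95364797 (SOX21). Their windows ranged from 12.9 kb (SOX21) to 31.6 kb (LHX2) and summed to 144 kb. For scale, each of the 30534 merged H3K4me3 regions on chromosomes 1 to 21 was centred in a window of 16.16 kb, the median width of the gene windows. These promoter-like windows overlap each other and include some of the 8 genes. The full lists held 24757 to 28735 peaks for H3K4me3, 19989 to 31682 for H3K27me3, 10268 to 32521 for H3K27ac and 1878 to 6280 for H3K4me1, and the number of reads behind them is unknown here.

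H3K27me3 was listed at all 8 genes in all 4 fractions, against 23% of promoter-like windows. It covered 115.2, 111.9, 102.2 and 107.3 kb of the 144 kb. In early G1 it covered at least 50% of all 8 windows, where 3.21% of promoter-like windows were covered as far. The other fractions had 7 of 8 genes above that level, beside 4.09%, 2.14% and 3.18% of windows, and SOX21 was the exception each time. Of the 120 kb that carried H3K27me3 in any fraction, 98.9 kb (82.5%) carried it in all 4. H3K4me3 was listed at fewer of the genes: 5, 4, 4 and 6 of the 8 had a peak, beside 87.2%, 83.4%, 83% and 92.9% of the promoter-like windows, which H3K4me3 itself defines. Since H3K27me3 was at every gene, the same 5, 4, 4 and 6 genes had both marks (27.5%, 27.6%, 22.6% and 28.4% of windows). SOX1, OTX2, ZIC2 and SOX21 had both in all 4 fractions (4 of 8 genes, beside 17% of windows). ZIC1, LHX2 and LHX5 had H3K4me3 in 1 fraction each, and SIX3 had none in any fraction.

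**Figure D1:**
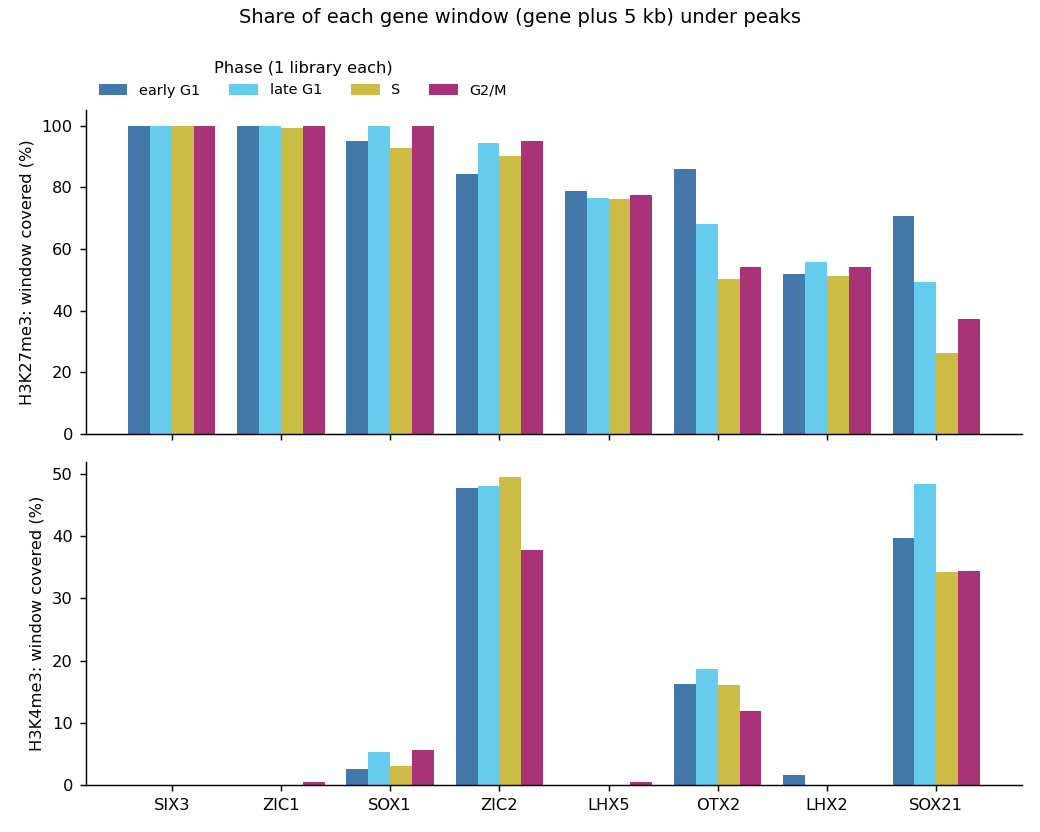
Share of each gene window under H3K27me3 peaks (upper panel) and H3K4me3 peaks (lower panel), in percent, for the 8 genes ordered by mean H3K27me3 share; each bar is 1 library. H3K27me3 stands at or near 100% at SIX3 and ZIC1 in all fractions, while OTX2 and SOX21 are highest in early G1, and the lower panel shows H3K4me3 above 10% at ZIC2, SOX21 and OTX2.

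The promoter sequences of a gene pair and of a gene with a pair of starts are shown because the marks separate them. ZIC1 and ZIC2 encode closely related proteins, ZIC1 lay under H3K27me3 almost alone, and ZIC2 had one of the longest H3K4me3 peaks of its lists. OTX2 has an outer and an inner start in RefSeq, and its H3K27me3 domain and its H3K4me3 and H3K27ac peaks lay at different distances from the outer end of the gene. Sequences are from RefSeq on GRCh38.p14, run from 250 bases before to 50 after the start, and have each CG dinucleotide in capitals. Their strands and positions are ZIC1 chr3:147409115-147409414 (plus), ZIC2 chr13:99981534-99981833 (plus), OTX2 outer chr14:56810430-56810729 (minus) and OTX2 inner chr14:56805618-56805917 (minus).
ZIC1: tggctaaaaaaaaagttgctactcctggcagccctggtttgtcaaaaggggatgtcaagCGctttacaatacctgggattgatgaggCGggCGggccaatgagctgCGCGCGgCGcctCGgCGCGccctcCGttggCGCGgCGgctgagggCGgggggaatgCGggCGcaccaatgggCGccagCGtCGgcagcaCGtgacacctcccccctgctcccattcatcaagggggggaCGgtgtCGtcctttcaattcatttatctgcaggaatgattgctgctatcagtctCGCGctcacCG
ZIC2: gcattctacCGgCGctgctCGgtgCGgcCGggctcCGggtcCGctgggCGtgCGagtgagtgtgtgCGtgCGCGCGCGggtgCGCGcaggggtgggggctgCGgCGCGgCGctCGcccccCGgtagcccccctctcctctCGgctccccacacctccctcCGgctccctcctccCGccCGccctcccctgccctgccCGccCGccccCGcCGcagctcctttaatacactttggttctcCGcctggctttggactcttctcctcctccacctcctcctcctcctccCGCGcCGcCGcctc
OTX2 outer start: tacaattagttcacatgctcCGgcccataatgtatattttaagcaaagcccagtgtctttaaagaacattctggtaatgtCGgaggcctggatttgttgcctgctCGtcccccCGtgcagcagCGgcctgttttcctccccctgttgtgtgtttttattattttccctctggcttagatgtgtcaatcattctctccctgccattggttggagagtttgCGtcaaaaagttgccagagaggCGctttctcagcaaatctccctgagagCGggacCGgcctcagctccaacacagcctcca
OTX2 inner start: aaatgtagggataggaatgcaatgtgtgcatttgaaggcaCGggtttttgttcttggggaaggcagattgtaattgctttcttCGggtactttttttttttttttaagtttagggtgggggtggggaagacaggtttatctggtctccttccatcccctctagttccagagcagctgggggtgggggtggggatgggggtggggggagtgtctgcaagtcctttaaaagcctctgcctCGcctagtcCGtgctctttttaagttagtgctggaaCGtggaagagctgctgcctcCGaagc

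The ZIC1 promoter holds 26 CG and the ZIC2 promoter 35, more than 69.9% and 85.9% of the 35116 promoters in the table, while the outer and inner OTX2 promoters hold 9 and 6. CG reads the same on both strands, 96.04% of promoters of this length hold at least 1, and the median is 14. The table matched 6 of the 8 genes, with SIX3 and LHX5 not in it. SOX1 had 37 CG, LHX2 30 and SOX21 15. The promoters of OTX2 and SOX21, which had long H3K4me3 peaks, held the fewest CG of those matched. Those of ZIC1, LHX2 and SOX1, with short or no H3K4me3, held more, and ZIC2 was high in both. A relation between CG count and H3K4me3 was not tested, and CG under the H3K4me3 peaks was not counted.

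SIX3 and ZIC1 lay inside long H3K27me3 domains. At SIX3, a forebrain and eye regulator, a single H3K27me3 peak covered 100% of the window in every fraction. That peak ran for 34.45, 34.35, 29.025 and 33.925 kb and was longer than at least 99.9% of peaks in its list each time. Its lower edge moved over 0.75 kb between fractions and its upper edge over 4.8 kb, with S the shortest. No H3K4me3, H3K27ac or H3K4me1 peak fell in the SIX3 window. The nearest H3K4me3 was 7.19 to 7.21 kb from the gene in late G1, S and G2/M, within the H3K27me3 domain but outside the window, and 63.9 kb away in early G1.

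ZIC1 was covered over 100%, 100%, 99.4% and 100% of its window. Single peaks of 42.05, 42.0 and 39.025 kb spanned the gene in early G1, late G1 and G2/M, from chr3:147101701-147143750 in early G1. In S phase the domain was listed as separate pieces, the longest of 16.4 kb at chr3:147127076-147143425. The domain reaches over the side where ZIC4, its divergently transcribed neighbour, lies. A lone H3K4me3 peak of 75 bp in G2/M, 4.845 kb beyond the gene, stood above 1.34% of the peaks in its list by height. It is among the weakest entries of that list. The nearest H3K27ac was 30.7 kb away in late G1, and 518.02, 518.47 and 517.22 kb away in early G1, S and G2/M.

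The LIM homeobox genes LHX5 and LHX2 had H3K27me3 domains with 1 end at nearly the same place in every fraction, as some of the other genes did. For the longest peak of each fraction, the upper edge ranged over 0.575 kb at ZIC1, and the lower edge over 0.75 kb at SIX3 and 0.8 kb at OTX2. LHX5 was covered along 100% of the gene in each fraction by peaks of 19.5, 19.4, 18.1 and 19.5 kb whose lower edges lay within 0.225 kb of each other, just before the lower end of the gene. At LHX2 the gene was covered over 52.9%, 57.01%, 51.9% and 55.4% of its length. The LHX2 domain ended between chr9:126785075 and chr9:126785450, a range of 0.375 kb, and the 9.25 kb from 126787451 to 126796700 carried H3K27me3 in none of the 4 lists. With transcription on the plus strand, that leaves the promoter-side part of LHX2 under the mark and most of the far part free of it. H3K4me3 at LHX2 consisted of peaks of 225 and 300 bp in early G1, the taller above 17.4% of its list, and at LHX5 of 1 peak of 75 bp in G2/M above 0.242%. Neither gene had H3K27ac or H3K4me1 in its window.

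SOX1, the neural progenitor marker, had H3K27me3 over nearly all of its window and weak H3K4me3. H3K27me3 covered 95.04%, 99.8%, 92.9% and 99.8% of its window. H3K4me3 covered 0.35, 0.75, 0.425 and 0.8 kb, all of it under H3K27me3. A peak just inside the gene start, at chr13:112722001-112722350 in early G1, was listed again in late G1 and S and was missing in G2/M, where the tallest H3K4me3 peak lay past the gene end at chr13:112727226-112727575. Late G1 and S also had H3K4me3 past the gene end, in peaks lower than the one inside the gene. The tallest peak in the window stood at 36.6%, 38.9%, 47.3% and 40.8% of its list by height, so below the median H3K4me3 peak in each fraction. The SOX1 window had no H3K27ac, but a peak stood outside it in late G1, at chr13:112732926-112733550 and 6.906 kb from the gene. Its height percentile there was 99.96. The same place was listed in S (97.02) and G2/M (99.01), and in early G1 the nearest peak, 7.806 kb from the gene, had a percentile of 36.8.

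ZIC2 carried the broadest H3K4me3 of the 8 genes. H3K4me3 covered 7.15, 7.2, 7.425 and 5.675 kb, and its main peak, chr13:100633026-100637700 in early G1, ran from 1000 bp before the gene start to 1319 bp short of the gene end. That peak was 4.675, 5.85, 4.775 and 4.675 kb long, longer than 99.7%, 99.9%, 99.7% and 99.9% of the peaks in its list. H3K27me3 covered 12.7, 14.1, 13.5 and 14.2 kb of the same window, and 72.7%, 92.01%, 85.2% and 91.6% of the H3K4me3 length lay under it. In early G1 an H3K27me3 peak ended at 100632650 and the next began at 100634751, with the gene start between them, and in the later fractions short H3K27me3 peaks were listed inside that gap. An H3K27ac peak of 175 bp was listed in late G1 alone and stood above 30.0% of that list. H3K4me1 was listed in S, with 3 peaks, and in G2/M, with 1. Over all genes H3K4me1 was at 0, 1, 2 and 1 of 8, beside 2.99%, 4.78%, 9.03% and 6.18% of windows.

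In kb, SOX21 had less H3K27me3 than any other of the 8 genes in each fraction, and it had the highest ratio between its highest and lowest fraction. It covered 9.122, 6.372, 3.4 and 4.797 kb of the 12.9 kb window, or 70.6%, 49.3%, 26.3% and 37.1%. Early G1 was 2.68 times S. The mark was listed as 5, 14, 12 and 12 peaks, and the longest of them measured 7.275, 4.0, 0.7 and 3.45 kb. Between 17.7% and 28.7% of the covered length in late G1, S and G2/M came from peaks below the median height of their list, 7 of 14, 6 of 12 and 5 of 12 peaks, and none of it in early G1. Their part in the difference was not tested. H3K4me3 covered 5.125, 6.25, 4.425 and 4.45 kb. It peaked over the gene start (gene end in coordinates, as SOX21 is on the minus strand), with a peak of 4.8 kb at chr13:95362301-95367100 in late G1 and peaks of 2.65, 1.35 and 2.9 kb in early G1, S and G2/M. Of the H3K4me3 length, 93.7%, 60%, 50.8% and 71.9% lay under H3K27me3. SOX21 had no H3K27ac or H3K4me1 in its window, and the nearest H3K27ac was 48.5 to 48.6 kb from the gene in all 4 fractions.

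**Figure D2:**
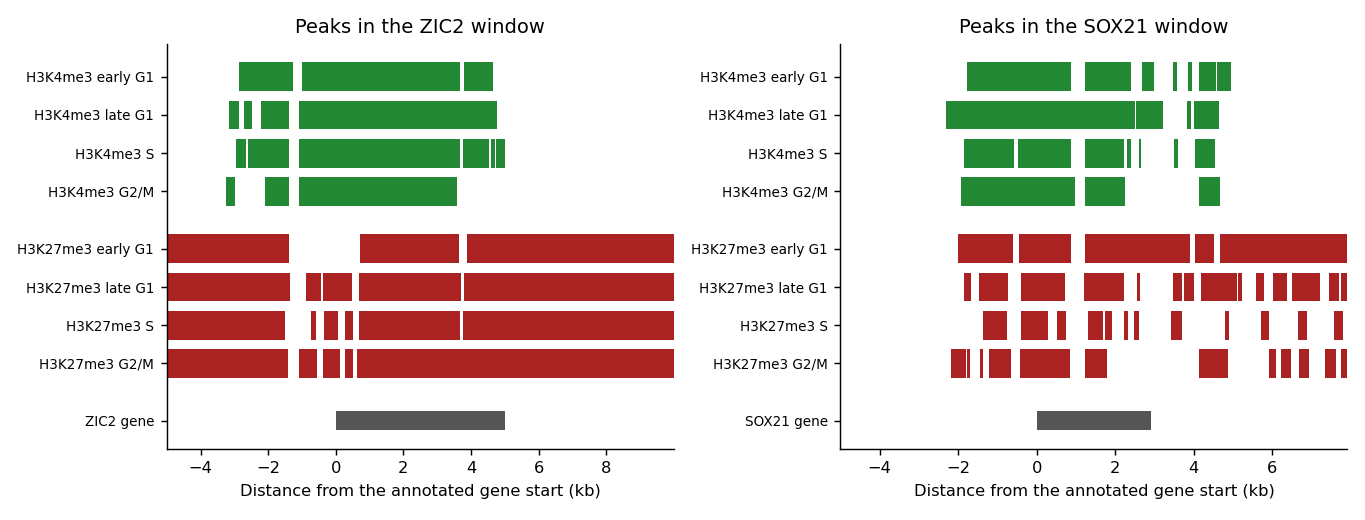
Peaks of H3K4me3 (green) and H3K27me3 (red) in the windows of ZIC2 and SOX21, by fraction, against distance in kb from the annotated gene start, with the gene as a grey bar and transcription running to the right. At ZIC2 both marks lie over most of the gene in every fraction; at SOX21 H3K27me3 appears as 5 peaks in early G1 and as 12 to 14 in the later fractions.

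OTX2 had the most acetylation of the 8 genes. H3K27ac covered 1.25, 1.475, 0.625 and 1.275 kb, all inside the gene. It was present in all 4 fractions at this 1 gene, beside 11.5% of promoter-like windows. By fraction, 1, 2, 1 and 1 of the 8 genes had it, beside 44.5%, 37.4%, 13.5% and 24.8% of windows. Its tallest peak always overlapped chr14:57272751-57273050 and stood at percentiles 82.1, 98.8, 98.02 and 97.6 of its list by height. With ZIC2, 2 of 8 genes had H3K27ac in any fraction, against 52.8% of all promoter-like windows and 17.4% of the 927 windows that H3K27me3 covered by at least 50% on average. The S library, where OTX2 had least H3K27ac, also had the shortest list.

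Within OTX2, H3K27ac lay largely apart from H3K27me3. The main H3K4me3 peak, chr14:57270501-57272400 in early G1, was 1.9, 1.85, 1.9 and 1.725 kb long, and its upstream edge lay 4794, 4744, 4769 and 4719 bp into the gene from its outer end, called the outer start here. RefSeq places the outer and inner OTX2 starts 4812 bp apart on GRCh38; positions were not carried between builds, so these distances stand side by side. The tallest H3K27ac peak lay upstream of that edge, beginning 3394 to 4144 bp and ending 4443 to 4518 bp from the outer start. H3K27me3 covered the outer start in each fraction. A stretch of 1.825 kb, chr14:57272101-57273925, had no H3K27me3 in any list, and 1.425 kb of it had H3K27ac in some fraction. H3K27ac and H3K27me3 overlapped over 0.2 kb in late G1 and 0.075 kb in G2/M at its upstream border. Weaker H3K4me3 peaks lay under H3K27me3 between the outer start and this stretch, the tallest at percentiles 38.4, 42.5, 46.2 and 72.2.

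The part of OTX2 from the main H3K4me3 peak to the 3′ end was where the fractions differed most. H3K27me3 covered 16.97, 13.47, 9.945 and 10.695 kb of the window, and within the gene itself 7.145, 4.269, 2.794 and 3.244 kb. Early G1 was highest and S lowest, by 1.71 times in the window. Early G1 had H3K27me3 over the main H3K4me3 peak, at chr14:57270476-57271350 and chr14:57271476-57272100, late G1 had a peak of H3K27me3 at chr14:57270926-57271150, and the S and G2/M lists had none there. Accordingly 86.8%, 46.9%, 39.4% and 26.6% of the OTX2 H3K4me3 length lay under H3K27me3. H3K4me1 at OTX2 was a peak of 75 bp in late G1 and S, low in both lists.

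**Figure D3:**
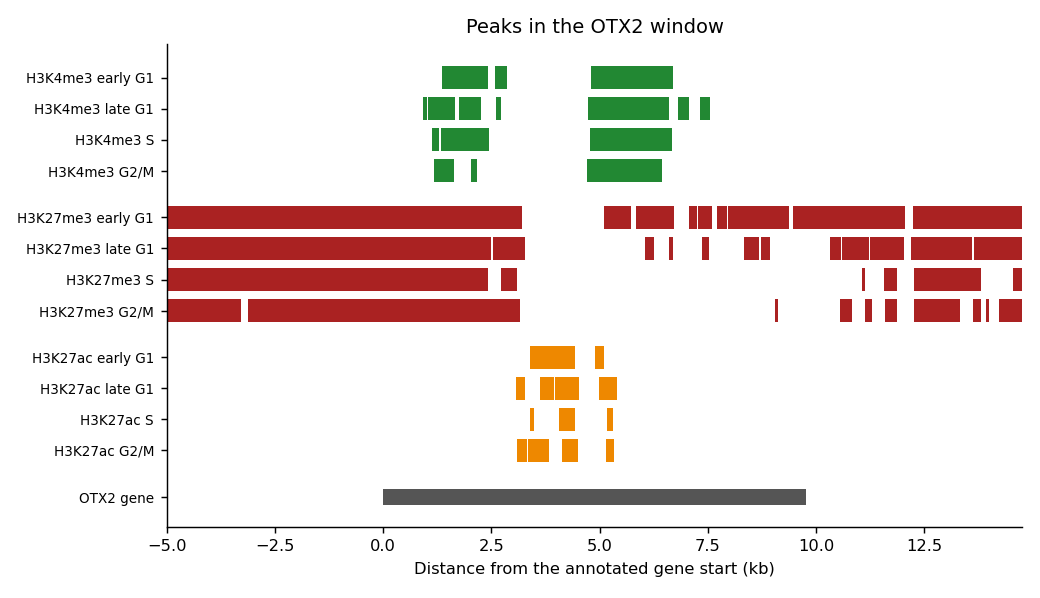
Peaks of H3K4me3 (green), H3K27me3 (red) and H3K27ac (orange) in the OTX2 window, by fraction, against distance in kb downstream of the outer start, with the gene as a grey bar. Most of the orange lies in the stretch with no red in any fraction, and red peaks downstream of it are long in early G1 and few in S.

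Between successive fractions, the H3K27me3 length within the windows differed mainly at SOX21 and OTX2. A difference was called when covered length differed by 1.5 times or more between successive fractions. From late G1 to S, 1 of 8 genes (SOX21) was lower by that much and none was higher, against 66.8% and 7.45% of windows with the mark and 18.9% (lower) of those covered by at least 50% on average. Covered length was lower in S by any amount at 7 of 8 genes, with SIX3 equal, beside 89.8% of windows and 95.8% of the widely covered ones. The summed length in S was 0.914 times that in late G1 over the 8 genes and 0.806 times over the widely covered windows. It was 0.637 times over all promoter-like windows and 0.536 times over the whole lists. Covered length was clipped to the window, so a domain longer than its window could shorten in S unseen. The SIX3 peak measured 34.35 kb in late G1 and 29.025 kb in S, and the longest ZIC1 peak 42 and 16.35 kb. With flanks of 20 kb, 8 of 8 genes were lower in S, and the summed log2 ratio was -0.183, against -0.130 with 5 kb. The promoter-like windows were not widened, so the part of clipping in these ratios was not tested. No gene was called from early to late G1 (16.1% of windows lower and 28.4% higher, or 0% and 3.67% of the widely covered) or from S to G2/M (10.1% lower and 43.1% higher, or 0% and 8.52%). From G2/M to early G1, OTX2 (1.59 times) and SOX21 (1.90 times) were higher by 1.5 times or more, 2 of 8 genes beside 35.3% of windows and 2.48% of the widely covered ones, and none was lower (21.3% and 1.73%). SOX21 averaged 45.8% cover and is not of the widely covered kind, so among the 7 genes that are, 1 (OTX2) was called for this step and 0 from late G1 to S. The gene windows differ in width from the promoter-like ones, and the 5th percentile of H3K27me3 height was 20.2, 17.5, 13.4 and 13.5, so the lists reach down to different heights; its part in these differences was not tested.

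**Figure D4:**
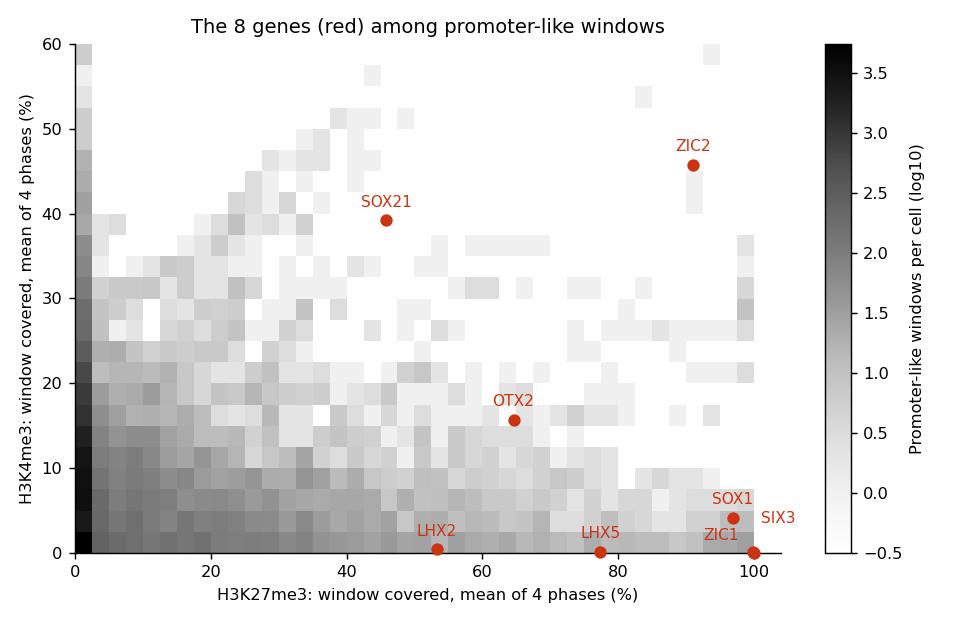
Mean share of the window under H3K27me3 (x axis, percent) and H3K4me3 (y axis, percent) over the 4 fractions, for the 8 genes in red and, as grey cells on a log10 scale of window number, the 30534 promoter-like windows. The genes lie to the right of the mass of windows at 0% H3K27me3; SIX3 and ZIC1 overlap at the lower right, ZIC2 and SOX21 stand high on the y axis, and 6 windows lie above the plotted range.

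H3K4me3 differed in height as well as length. Height percentiles place the tallest peak of a window in its own list, which makes lists of different scale comparable only by rank. ZIC2 stood at 96.04, 95.9, 96.6 and 86.6, OTX2 at 73.9, 87.9, 79.1 and 87.9, and SOX21 at 64.8, 95.01, 88.7 and 79.8. ZIC2 was lowest in G2/M, and OTX2 and SOX21 were lowest in early G1. From early to late G1 the percentile was higher by 10 points or more at OTX2 and SOX21, 2 of the 4 genes with a peak in both (29% of promoter-like windows), and lower by as much at none (21%). It was higher by any amount at 3 of 4 (52.4%), with ZIC2 nearly equal. The median difference over the 4 genes was 8.21 points, against 0.924 over all windows and 8.32 over the widely covered ones. From G2/M to early G1, OTX2 and SOX21 were lower by 10 points or more (31% of windows) and none was higher (14.3%). The median difference for that step was -9.14 points over the 4 genes, -2.19 over all windows and -12.6 over the widely covered ones. Between late G1 and S and between S and G2/M no gene reached 10 points in either direction, where 12.7% and 18.2% of windows were higher and 10.9% and 8.23% lower. H3K4me3 length differed by 1.5 times or more mainly where peaks were weak. SOX1 was longer (13.9% of windows) and LHX2 shorter (29.6%) from early to late G1, and SOX1 was shorter from late G1 to S (10.9%, with 18.9% of windows longer). From S to G2/M, SOX1, ZIC1 and LHX5 were longer (20.4%, with 15.4% shorter). From G2/M to early G1 the same 3 genes were shorter (18.4%) and LHX2 was longer (21.1%).

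**Figure D5:**
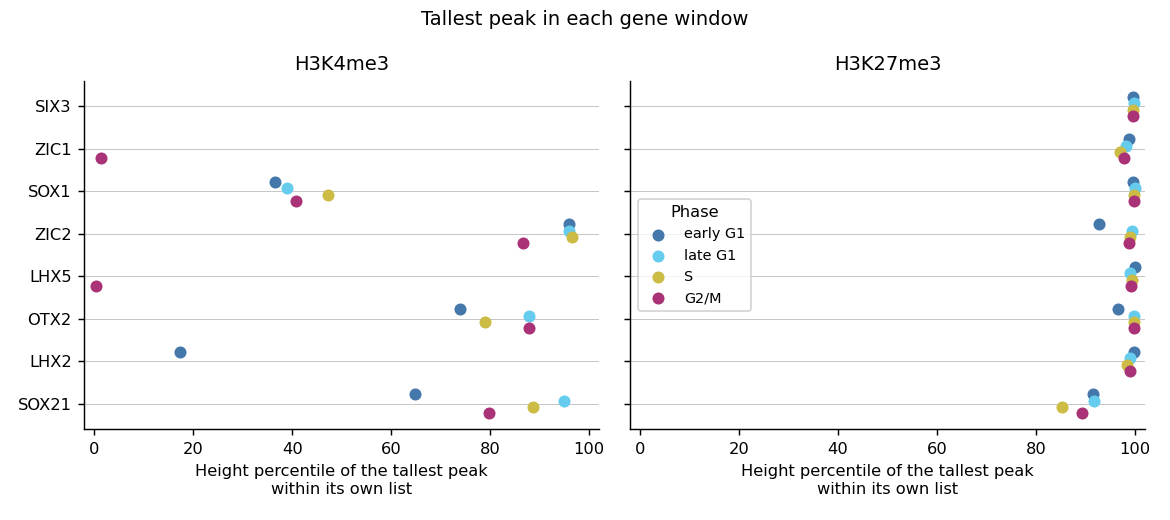
Height percentile of the tallest H3K4me3 peak (left) and H3K27me3 peak (right) in each gene window within its own list, 1 point per library; a gene with no peak has no point. H3K4me3 points spread from 0.242 to 96.6 across genes, while H3K27me3 points lie between 85.2 and 99.98, lowest at SOX21.

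H3K27me3 height percentiles were high throughout. Over the 8 genes the median was 99.1, 99.1, 99.2 and 99.1, and SOX21 gave the lowest value in each fraction (91.6, 91.7, 85.2 and 89.3). A percentile belongs to the whole peak, and the maximum lay inside the window in only 14 of the 32 gene and fraction pairs. At SOX1 the maxima in late G1, S and G2/M fell within 9 bp of each other, from chr13:112716643 to chr13:112716652, with deposited heights of 910, 571 and 423, and the early G1 maximum (324) was 2.045 kb away. OTX2 showed the same layout within 4 bp (heights 682, 513 and 461) and ZIC2 within 8 bp (321, 230 and 209), with the early G1 maxima 0.581 and 14.1 kb away. The SOX21 maxima of those 3 fractions lay within 44 bp. At the other genes they were spread over 1328 bp (LHX2), 3752 bp (ZIC1), 7316 bp (SIX3) and 12727 bp (LHX5), though some pairs lay close together. The late G1 and S maxima were at chr3:147127767 and chr3:147127780 for ZIC1, and at chr2:45161757 and chr2:45161785 for SIX3. For LHX5 the S and G2/M maxima were at chr12:113916341 and chr12:113916323. An H3K4me3 peak covered the maxima of the 3 later fractions at OTX2, ZIC2 and SOX21 and none did at SOX1. One also covered the SIX3 maxima of late G1 and S, 2.28 and 2.252 kb outside the window. The same held for the LHX5 maximum of G2/M, 1.446 kb outside its window. In early G1 one covered the ZIC2 maximum, which lay inside the gene, and none the OTX2 maximum. No H3K27ac or H3K4me1 peak covered any of the 32 maxima. A percentile can thus come from a peak away from the gene. At OTX2 in G2/M, the peak reaching into the gene stood at 94.3, and the tallest, wholly outside the gene, at 99.86. The inputs were not analysed here, so whether they also have maxima at these places was not tested.

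The 4C libraries gave a separate readout, read counts at restriction sites joined to viewpoints at GATA6 and SOX17, which lie on other chromosomes than these genes. The windows held 30 sites, 10 at OTX2, 6 at LHX2, 5 at SOX21, 4 at LHX5, 3 at ZIC1 and 2 at ZIC2, and SOX1 and SIX3 had none. From the GATA6 viewpoint, 7, 9, 12 and 7 of the 30 sites had a read, or 23.3% (exact Clopper-Pearson 95% interval 9.93 to 42.3), 30.0% (14.7 to 49.4), 40% (22.7 to 59.4) and 23.3% (9.93 to 42.3). Over all sites on other chromosomes the shares were 7.28%, 8.26%, 9.18% and 5.17%. From the SOX17 viewpoint 5, 7, 7 and 7 sites had a read, the lowest share being 16.7% (5.64 to 34.7), beside 7.55%, 6.44%, 8.23% and 4.37% of other sites. The lower limit of the interval lay above the share for other sites in all 4 GATA6 libraries. For SOX17 it did so in late G1, S and G2/M but not in early G1. Intervals cover counting error only, reads are PCR products without molecular identifiers, and neighbouring sites are not independent or matched to the other sites. The intervals therefore do not decide whether these windows differ from other sites. OTX2, with the most sites, and LHX2 had reads in all 8 libraries. OTX2 had 89, 70, 5 and 14 reads from GATA6 and 55, 340, 38 and 437 from SOX17. LHX2 had 214, 3, 120 and 52 from GATA6 and 1, 16, 8 and 54 from SOX17. LHX5 held 173, 454, 257 and 970 of the 476, 654, 385 and 1088 window reads from GATA6. Those LHX5 reads came from only 1, 1, 2 and 1 of its 4 sites. ZIC2 sites had no read in any of the 8 libraries. With 1 library per viewpoint and fraction, these counts do not compare the fractions.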

How the data were processed

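The 16 ChIP-seq peak lists of 28 samples were used, with 1 library per mark and fraction; the 4 inputs were not analysed here. Per the submitters' processing notes, tools and builds include Bowtie 0.12.7, hg19 and mm9, with their roles unstated. The sources used here name no peak caller, settings or role for the inputs. Positions were read as hg19. Deposited column 6 is a signal, used as peak height, and deposited column 7 a score, negative in every row; both are the authors' values and their scales are not stated. Heights of 0, nearly all on chromosomes coded 22 to 24, were left out of percentiles. The deposited 4C table gives counts of reads per restriction site, with 7491195 to 17076409 reads per library.

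Covered length is the union of peaks clipped to the window. A percentile is the percent of peaks in the same list with a lower height. Windows followed the stated gene spans; the named-gene rule was to name all 8. The members, gene lists and call rules (1.5 times, 10 points) were chosen with earlier results of these data known. Python 3.11.15, numpy 2.4.6, pandas 2.3.3, scipy 1.17.1 and matplotlib 3.10.9 were used, the coverage and percentile code was tested on simulated data, and no p-value was computed. Alternatives were stricter lists, equal list lengths, peaks of at least 500 bp, other flanks, score percentiles and length-weighted percentiles. All per-sample columns were mapped.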

Additional observations from a re-analysis of the deposited data

How the results depend on the processing

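Of 40 values under other settings, 29 stayed close to those reported, 11 moved and 0 reversed direction. A count of genes has no sign to reverse. A reversal was therefore possible only for the log2 ratio of summed H3K27me3 length (S over late G1) and the median H3K4me3 percentile difference. Gene counts called close included falls from 4 to 3 and from 3 to 2, and rises from 7 to 8 and from 3 to 4. The 4 genes with both marks in all fractions became 3, without SOX1, in the upper part of the lists by score, with peaks of at least 500 bp and without flanks. The median early to late G1 difference in H3K4me3 percentile was 28.0 points in the upper part of the lists by score, 6.88 with equal numbers of peaks, 19.7 with peaks of at least 500 bp, 11.7 by score percentile and 2.43 by length-weighted percentile; the first and the third of these settings left 3 genes to compare. Genes with H3K27ac in any fraction numbered 1 in the upper part of the lists, with equal numbers and with peaks of at least 500 bp (OTX2 each time, as ZIC2 dropped out), and 4 with flanks of 10 or 20 kb, which took in SOX1 and LHX2. Without flanks, 4 genes in place of 7 had less H3K27me3 in S than in late G1. For SOX21 and OTX2, the early G1 to S difference in H3K27me3 was recomputed in 12 values added after the data were seen. It kept its direction in all of them, which was likely, as both genes were added for it and the same libraries were reused. The log2 values ran from 0.96 to 2.71 at SOX21, reported as 1.42, and from 0.63 to 1.35 at OTX2, reported as 0.77. The cause of these moves was not tested. The unknown read depth limits all lengths: a gap in a list can be signal just under the calling level. No paired analysis was possible because each mark and fraction has 1 library.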
